A study of Mus musculus with 8 samples.

Results

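Hepatokines are proteins that liver cells secrete into the blood and that act on glucose and lipid handling in liver, fat, muscle and brain. The transcripts of 9 of them, Fgf21, Gdf15, Angptl4, Angptl6, Angptl8, Inhbe, Ahsg, Fetub and Rbp4, were taken from the table by symbol. All 9 were found among the 21532 genes of the table, and all 9 were among the 15989 genes tested, those whose normalized counts averaged 10 or more over the mice. Liver RNA was measured by RNA-Seq in 8 male db/db mice, 4 given control and 4 given AF1 peptide, with 1 library per mouse. Db/db mice lack a working leptin receptor, so that both groups were obese and diabetic, and there was no lean group among these libraries. From 8 weeks of age, the mice received retro-orbital injections of control or AF1 peptide (5 mg/kg, 2 each week) over 5 weeks. AF1 peptide is a synthetic peptide made from the N-terminal part of estrogen receptor alpha (ERα), with short stretches left out. It is joined to a TAT sequence that carries it into cells. What the control injection held is not given in the sources used here. The comparison asks whether AF1 peptide, which the study made as an insulin sensitizer, changed the transcripts of these secreted factors in the diabetic liver.

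The 9 genes belong to several branches of liver endocrine biology. Fgf21 and Gdf15 encode stress hormones: FGF21 signals through FGF receptors with the co-receptor beta-Klotho and raises energy use and insulin sensitivity, and GDF15 acts on the hindbrain receptor GFRAL to lower food intake. Angptl4 and Angptl8 encode inhibitors of lipoprotein lipase, the enzyme that releases fatty acids from blood triglycerides, and Angptl6 encodes a related protein of the angiopoietin-like family that opposes weight gain in mice. Inhbe encodes the activin E subunit, which restrains fat breakdown in adipose tissue. Ahsg and Fetub encode fetuin-A and fetuin-B, abundant plasma proteins of which fetuin-A inhibits the insulin receptor, and Rbp4 encodes the retinol carrier of blood, which is raised in insulin resistance. Fgf21 is switched on by the fasting regulator PPAR-alpha, by the carbohydrate sensor ChREBP and by the stress factor ATF4, and Angptl4 is a classical PPAR-alpha target, whereas Angptl8 rises with feeding and insulin.

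Promoters that share a sequence element are shown because they link members of different branches. The element TGATGCAA, the composite site of ATF4 and C/EBP proteins of the integrated stress response, was searched on both strands (TTGCATCA on the other) in the 250 bases before each annotated start. It was present for 3 of the 8 members with a window in the RefSeq promoter table, Fgf21, Angptl8 and Inhbe, and for 0.918% of 27025 genes (0.791% of 32851 windows). The windows are given 5′ to 3′ on the strand of the gene in GRCm38.p6. Capitals mark the element in each and, near the end of the Fgf21 window, an E-box (CACGTG).
Fgf21, chr7:45615491-45615740, minus strand: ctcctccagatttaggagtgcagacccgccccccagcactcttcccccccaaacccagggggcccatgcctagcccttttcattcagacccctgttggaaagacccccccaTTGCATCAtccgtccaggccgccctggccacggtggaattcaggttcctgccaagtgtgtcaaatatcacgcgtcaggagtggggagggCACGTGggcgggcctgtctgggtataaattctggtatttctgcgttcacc
Angptl8, chr9:21835260-21835509, plus strand: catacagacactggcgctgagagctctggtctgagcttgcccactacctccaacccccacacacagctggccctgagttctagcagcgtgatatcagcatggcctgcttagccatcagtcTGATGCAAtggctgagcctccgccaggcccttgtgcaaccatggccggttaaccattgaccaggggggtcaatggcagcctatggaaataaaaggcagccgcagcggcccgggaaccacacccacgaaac
Inhbe, chr10:127351849-127352098, minus strand: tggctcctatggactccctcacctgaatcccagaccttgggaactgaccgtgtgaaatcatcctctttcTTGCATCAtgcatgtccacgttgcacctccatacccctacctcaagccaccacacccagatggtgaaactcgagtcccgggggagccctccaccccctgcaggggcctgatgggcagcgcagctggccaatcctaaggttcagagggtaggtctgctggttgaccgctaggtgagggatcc
The element lay 139 to 132 bases before the start of Fgf21, 130 to 123 before that of Angptl8 and 181 to 174 before that of Inhbe. The E-box CACGTG, the core of carbohydrate response elements, was present in the windows of Fgf21 and Gdf15, and for 6.86% of all genes. The nuclear receptor site AGGTCA was found for Gdf15 (15.8% of all genes), and the FOXO site TGTTTAC for Fetub and Rbp4 (3.54% of all genes). No overlap between these elements was seen in the windows printed. Angptl4 had no window in the table. Matches are of letters in a window and do not show that a factor binds there.

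Reads assigned to genes, as recovered from the normalized counts, numbered 23031880 to 45117528 per mouse. AF1 peptide replicate 1 stood apart from the other 7 mice. On the first principal component of all genes tested, which held 39.3% of the variance, it scored 74.2, while the others scored between -21.8 and 2.33. It also had the lowest summed level of hepatocyte markers (1890111 normalized counts, against 1957138 to 2448779 in the other 7 mice), of Kupffer cell and macrophage markers (3307.2, against 7304.5 to 9119) and of adipocyte markers (3770, against 7138.1 to 8834.2), and the lowest share of mitochondrial reads (20.81%, against 22.38 to 37.78%). Sums of stellate cell, sinusoidal, biliary and red blood cell markers were lowest in it as well (9610.7, 7971.1, 1207.5 and 27116 normalized counts, where the lowest of the other 7 mice had 10100.3, 8225.8, 1726 and 34151.7). Single markers did not all follow these sums. Of the 10 hepatocyte markers, it was lowest for 3 (Alb, Apoa1 and Apob) and highest for 6, among them the amino acid and urea cycle genes Tat (68707.4 normalized counts, against 6311 to 23826.3), Ass1 (188674.6, against 35537.1 to 77767.3) and Cps1 (34575.8, against 5979 to 13727.3). It was lowest for 9 of 10 Kupffer cell and macrophage markers. Of 6 adipocyte markers found, it was lowest for 3 and highest for Slc2a4 (286, against 50.2 to 119), and most of the gap in the sum came from Cidec (243, against 3541.8 to 4768). Over all 8 mice, 0 of the hepatocyte markers, Adgre1 of the macrophage markers (log2 difference -0.66, and -0.45 without this mouse) and Dcn of the stellate cell markers (-0.42 and -0.43) were called, both lower. Of the adipocyte list, Adipoq, Lep and Plin1 were not in the table, and of 8 pancreatic genes 1 was. The part of these differences in the results was not tested, and the differences between groups are given with and without this mouse. In whole liver, fewer cells of a type and less RNA per cell cannot be told apart.

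No hepatokine passed the test. A gene was called when limma gave an unadjusted p under 0.05 and the groups differed by more than 1.3-fold, and 0 of the 9 were called in either direction, where 1.79% of all genes tested were called higher (286) and 1.9% lower (304). Without AF1 peptide replicate 1, again 0 of the 9 were called, against 2.86% of all genes called higher and 3.07% lower. The 4 control and 4 AF1 peptide mice overlapped for all 9 hepatokines. Of all genes, 2.05% were higher in every AF1 peptide mouse than in every control mouse and 1.85% were lower. Without replicate 1 these shares were 4.35% and 4.8%, and the 9 hepatokines still overlapped. With shares this small, called or not overlapping, 0 of 9 does not set the hepatokines apart from genes in general. Over all genes, limma gave 0 Benjamini-Hochberg adjusted p values under 0.05 and 990 unadjusted ones, edgeR gave 0 adjusted and DESeq2 3, so that the calls are nominal. The limma adjusted p values of the 9 ran from 0.763 (Gdf15) to 0.985 (Angptl6). With a rescaling to equal totals in place of the authors' size factors, 122 genes were called higher and 602 lower, among them Gdf15 and Inhbe.

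**Figure D1:**
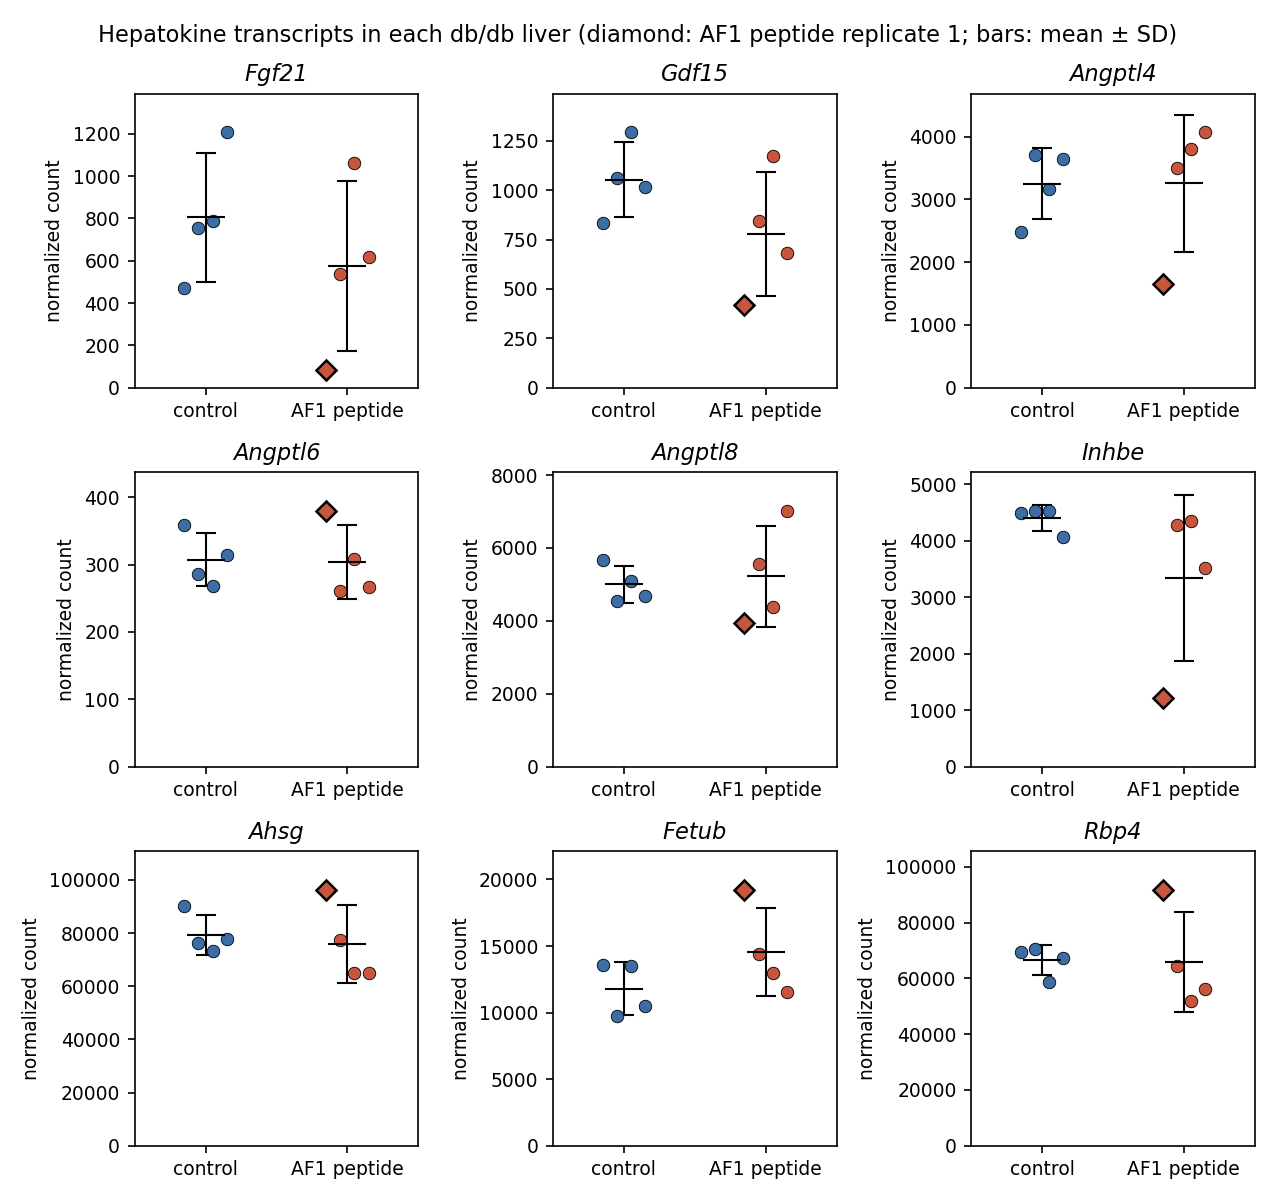
Normalized counts (vertical axes, each from 0) of the 9 hepatokines in 4 control (blue) and 4 AF1 peptide (red) db/db livers, 1 point per mouse, with the mean and SD of each group as bars. The diamond, AF1 peptide replicate 1, is the lowest of the 8 mice for Fgf21, Gdf15, Angptl4, Angptl8 and Inhbe and the highest for Angptl6, Ahsg, Fetub and Rbp4, and the other 3 AF1 peptide mice overlap the controls in every panel.

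Fgf21 varied more between mice than any other hepatokine. Its normalized counts were 469.7, 752.4, 789.1 and 1209 in control replicates 1 to 4 and 81.19, 538.8, 1061 and 619 in AF1 peptide replicates 1 to 4. A single AF1 peptide mouse was far below the rest, at 0.101 of the control mean (9.92-fold lower), and the other 3 lay within the control range. The control mean was 805.1 ± 304.9 (SD, n = 4) and the AF1 peptide mean 575 ± 401.4 (SD, n = 4). The log2 difference was -0.88 ± 0.65 (SE), with a 95% confidence interval of -2.33 to 0.56 (limma, p = 0.204, exact permutation p = 0.4). Without replicate 1 the difference was -0.11, with an interval of -0.73 to 0.52, and without replicate 3 it was -1.34. The count models edgeR and DESeq2 put it at -0.48. These data therefore leave room for anything between 0.199-fold and 1.48-fold of the control level of Fgf21, the widest interval of the 9.

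Gdf15, which encodes a hormone released by stressed cells, had the smallest p value of the 9 hepatokines. Its normalized counts were 834.8, 1064, 1296 and 1017 in the control mice and 419.9, 843.8, 1172 and 682.3 in the AF1 peptide mice. Replicates 1 and 4 of the AF1 peptide group were below every control, and replicates 2 and 3 were within the control range. The mean was 1053 ± 189.8 (SD, n = 4) in the control group and 779.6 ± 314.7 (SD, n = 4) with AF1 peptide, a log2 difference of -0.51 ± 0.27 (SE; 95% confidence interval -1.10 to 0.08). The limma p was 0.0837 and the two-sided exact permutation p was 0.2, where 0.0286 is the smallest that 4 against 4 mice allow. Without replicate 1 the difference was -0.25 (interval -0.64 to 0.15, exact permutation p = 0.4). Gdf15 was called lower when AF1 peptide replicate 3 was left out (log2 difference -0.74, limma adjusted p = 0.776).

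Among the angiopoietin-like genes, the lipase inhibitor Angptl4 gave means that were the same to within 1 count. Its normalized counts were 2480, 3715, 3172 and 3648 in control mice, and 1646, 3494, 3801 and 4077 in AF1 peptide mice. Replicate 1 was the lowest of all 8 livers, and the highest 2 livers were also from the AF1 peptide group. The control mean was 3254 ± 569.3 and the AF1 peptide mean 3255 ± 1098 (SD, n = 4 each), and the log2 difference was -0.06 (95% confidence interval -0.65 to 0.52). Its sign turned when replicate 1 was left out, to 0.24 (interval -0.07 to 0.54, limma p = 0.116, exact permutation p = 0.229).

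Angptl8, the insulin-responsive member of the family, was measured at 5675, 4552, 5098 and 4688 normalized counts in control mice and at 3931, 5552, 4369 and 7017 in AF1 peptide mice. The AF1 peptide livers included both the highest and the 2 lowest values. The SD was 504.7 in control and 1381 in AF1 peptide mice, and a difference in spread was not tested. The log2 difference was 0.03 (95% confidence interval -0.35 to 0.41, limma p = 0.869, exact permutation p = 0.914), and 0.15 without replicate 1 (interval -0.17 to 0.48). Angptl8 lies in an intron of Dock6 on the opposite strand, Angptl6, Inhbe and Ahsg also overlap an annotated gene of the other strand, and the use of strand in counting is not stated in the sources used here. Angptl6 was the least abundant of the 9, at 358.5, 286.6, 268.1 and 314.9 normalized counts in control mice and 379.8, 261.2, 308.9 and 267.2 in AF1 peptide mice. The groups covered almost the same range, with a log2 difference of -0.02 (95% confidence interval -0.35 to 0.31) and of -0.13 without replicate 1 (interval -0.42 to 0.15).

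Inhbe was the most even hepatokine in control livers and had a single AF1 peptide liver far from all others. Its normalized counts were 4492, 4519, 4529 and 4068 in control mice, and 1209, 4287, 4343 and 3514 in AF1 peptide mice. Replicate 1 was at 0.275 of the control mean (3.64-fold lower) and replicate 4 was also below every control, while replicates 2 and 3 were within the control range. The mean was 4402 ± 223.1 in control mice and 3338 ± 1469 with AF1 peptide (SD, n = 4 each), with a log2 difference of -0.56 ± 0.34 (SE; 95% confidence interval -1.32 to 0.20; limma p = 0.134; exact permutation p = 0.171). Without replicate 1 the difference was -0.13 (interval -0.36 to 0.10), the narrowest interval of the 9. Of the 50-base words of its transcript, 20 (0.38%) were shared with other genes, and none of the other 8 members shared any.

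The 3 carrier and plasma protein genes were the most abundant. Ahsg had 90036.8, 76180.3, 73238 and 77654 normalized counts in control mice and 96273.2, 77449.2, 64886.7 and 64890.4 in AF1 peptide mice. The AF1 peptide group held the highest liver and the 2 lowest, and the log2 difference was -0.08 (95% confidence interval -0.51 to 0.36), or -0.20 without replicate 1 (interval -0.56 to 0.16). Rbp4 had 69575.2, 70612.5, 58814.8 and 67307.4 normalized counts in control mice and 91725.8, 64306, 51784.5 and 56187.4 in AF1 peptide mice. It was ordered much like Ahsg, with replicate 1 above and replicates 3 and 4 below all controls, and its log2 difference was -0.05 (interval -0.51 to 0.42), or -0.22 without replicate 1 (interval -0.56 to 0.13, limma p = 0.194, exact permutation p = 0.114, where 0.0571 is the smallest that 4 against 3 mice allow).

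Fetub, the gene of fetuin-B, had the largest positive difference of the 9. Its normalized counts were 13551.8, 9708, 13468.7 and 10474 in control mice and 19218.6, 14427.2, 12948.2 and 11572.8 in AF1 peptide mice. Replicates 1 and 2 of the AF1 peptide group exceeded every control, and replicates 3 and 4 were within the control range. The mean was 11800.6 ± 1999 in control mice and 14541.7 ± 3329 with AF1 peptide (SD, n = 4 each), a log2 difference of 0.29 ± 0.18 (SE; 95% confidence interval -0.11 to 0.69; limma p = 0.135; exact permutation p = 0.2). Without replicate 1 it was 0.15 (interval -0.17 to 0.47).

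**Figure D2:**
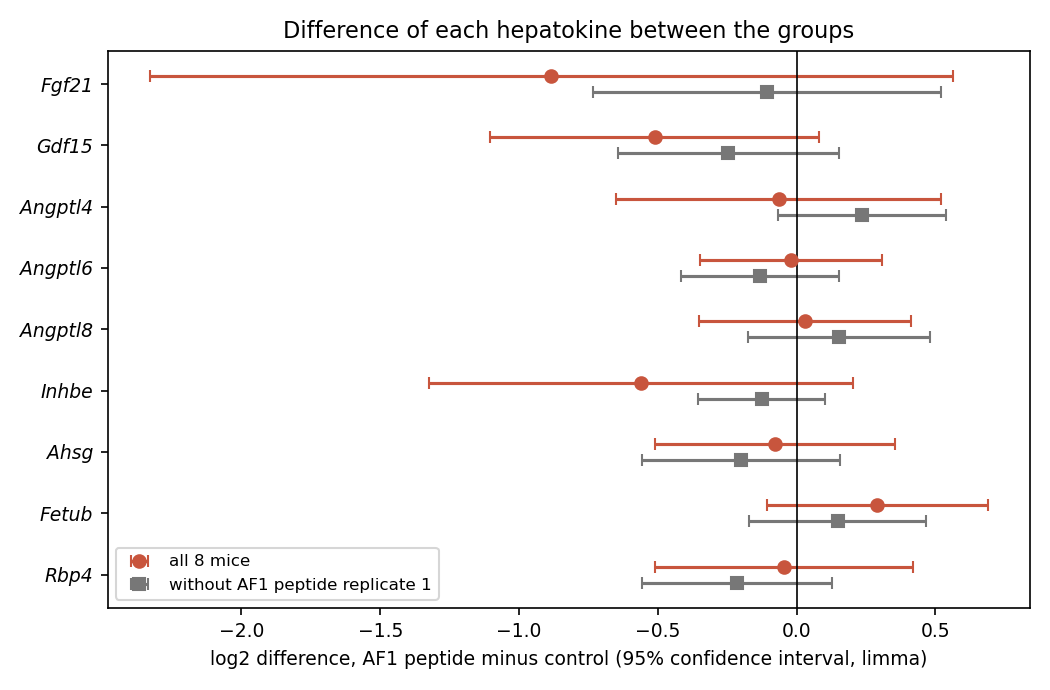
Log2 difference of each hepatokine, AF1 peptide minus control (horizontal axis), with its 95% confidence interval from limma, over all 8 mice (red circles) and without AF1 peptide replicate 1 (grey squares). All 18 intervals hold 0, and that of Fgf21 narrows from -2.33 to 0.56 down to -0.73 to 0.52 when that mouse is left out.

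AF1 peptide replicate 1 lay outside the range of the other 7 mice for all 9 hepatokines, and for 49.3% of all genes tested. No other mouse was outside for more than 2 of the 9. It was below the others for Fgf21, Inhbe, Gdf15, Angptl4 and Angptl8, at 9.27-fold, 3.59-fold, 2.42-fold, 2.22-fold and 1.3-fold under the median of the other 7. It was above them for Fetub, Rbp4, Angptl6 and Ahsg, at 1.48, 1.43, 1.33 and 1.26 times that median. The low members were thus the hormones and the lipase inhibitors with activin E, and the high members were the 3 plasma protein genes with Angptl6. For comparison, the highest of the other 7 mice exceeded the lowest 2.57-fold for Fgf21 and 1.29-fold for Inhbe.

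Levels of different genes were compared per kilobase of the longest annotated coding transcript (5319 bases for Inhbe and 951 for Fgf21). Whether that transcript was the one expressed was not examined, and the order depends on it. In control mice Rbp4 (57344.9 ± 4613.3 normalized counts per kilobase, SD, n = 4) and Ahsg (53421.4 ± 4989.4) led and overlapped each other. Fetub (7389.2 ± 1251.8) and Angptl8 (5784 ± 583) followed and overlapped each other, as did Angptl4 (984 ± 172), Fgf21 (847 ± 321), Inhbe (828 ± 41.9) and Gdf15 (682 ± 123) in a chain of neighbours. Within that chain, Fgf21 was above Inhbe in 2 of 8 mice. Angptl6 was last, at 194 ± 24.9. The 3 steps between Ahsg and Fetub, Angptl8 and Angptl4, and Gdf15 and Angptl6 were larger than the spread, since the upper gene exceeded the lower in 8 of 8 mice without overlap of their ranges. Ahsg transcripts made up 0.216% and Rbp4 transcripts 0.185% of all normalized counts.

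**Figure D3:**
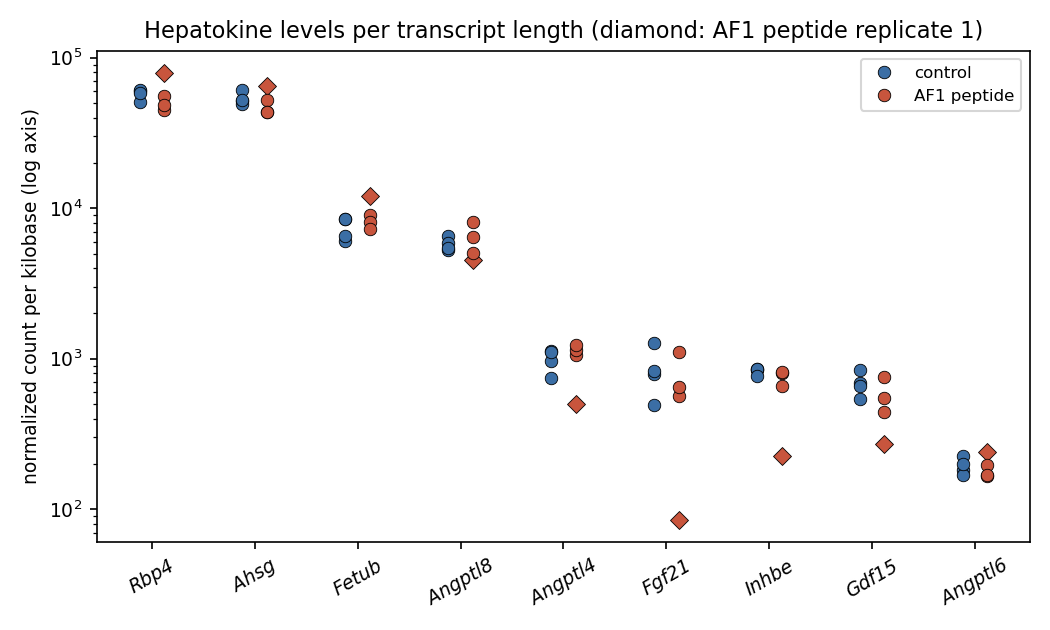
Normalized counts per kilobase of transcript (log axis) for the 9 hepatokines in control (blue) and AF1 peptide (red) mice, 1 point per mouse, ordered by the control mean. Rbp4 and Ahsg lie highest, Angptl6 lowest (control means 57344.9, 53421.4 and 194), and the diamond (AF1 peptide replicate 1) leaves the range of its gene's other mice furthest for Fgf21, at 85.4.

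The hepatokines were compared with one another across mice, as a description, since the points share the libraries and 1 mouse far from the rest. Of the 36 pairs, 9 had a Pearson r of the log2 values above 0.8 in size over 8 mice, and 3 over the 7 mice without AF1 peptide replicate 1. Fgf21 went with Inhbe (r = 0.908), Angptl4 (0.897) and Gdf15 (0.894) over 8 mice, and over 7 mice these values were -0.0137, 0.512 and 0.624. A pair of relations was of like size in both sets. Ahsg and Rbp4 varied together (0.914 over 8 mice and 0.856 over 7), and Angptl4 and Ahsg ran opposite to each other (-0.879 and -0.828). Gdf15 and Angptl8 were unrelated over 8 mice (0.0496) and opposite over 7 (-0.841).

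**Figure D4:**
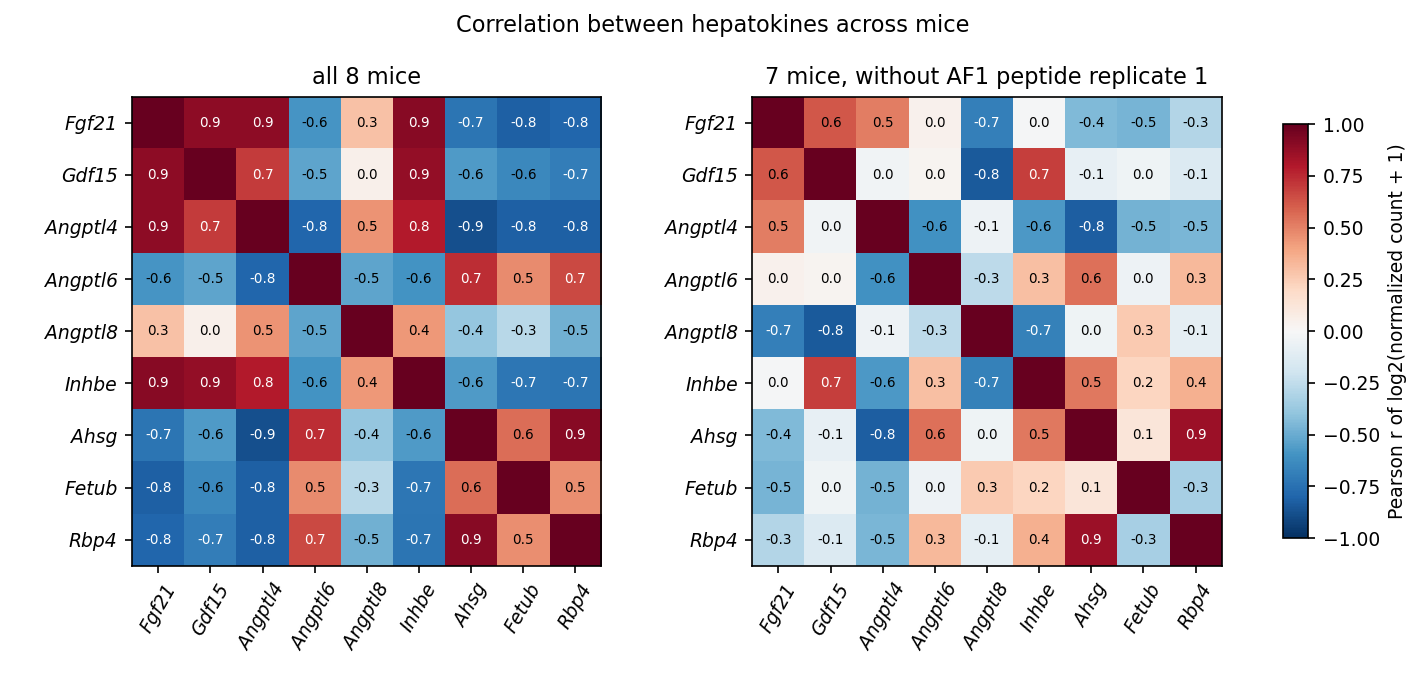
Pearson r between the log2(normalized count + 1) values of each pair of hepatokines over all 8 mice (left) and over the 7 mice without AF1 peptide replicate 1 (right), in color from -1 to 1 with the rounded value in each cell. The block of high values among Fgf21, Gdf15, Angptl4 and Inhbe on the left breaks up on the right, where Ahsg with Rbp4 (0.856), Gdf15 with Angptl8 (-0.841) and Angptl4 with Ahsg (-0.828) are the pairs above 0.8 in size.

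Among 12443 genes that averaged 50 or more normalized counts, those most like each hepatokine over 8 mice were Tmem86a for Fgf21 (r = 0.993), Coro2b for Gdf15 (0.980), Hpse for Angptl4 (0.986), Gm32064 for Angptl6 (0.958), C330018D20Rik for Angptl8 (0.939), Rad51b for Inhbe (0.996), Klf12 for Ahsg (0.985), Slc29a1 for Fetub (0.984) and Kank2 for Rbp4 (0.987). C1qa, a complement gene of macrophages, was among the 3 most like Fgf21 both over 8 mice (0.987) and over 7 (0.975), where Hoxb3 came first (0.984). Klf12 for Ahsg (0.985 and 0.9755) and Naa10 for Fetub (0.979 and 0.972) were likewise among the 3 in both sets. The 7 mice are a part of the 8, so that a gene found in both sets is not separate evidence. All these r values are the highest picked from 12443 genes over few mice, and are a description. How many genes exceeded an r of 0.9 fell from 290 to 56 for Fgf21 and from 292 to 14 for Inhbe without AF1 peptide replicate 1, and from 263 to 187 for Rbp4.

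Other factors that liver secretes were listed beside the 9, and here single genes were called. Of 28 tested, 2 were called higher and 1 lower, where 1.79% of all genes were called higher and 1.9% lower. The median log2 difference was 0.06, or 0.09 without AF1 peptide replicate 1 (all genes, -0.01 and -0.00365). Igf1, the growth factor of the growth hormone axis, rose from 8862.1 ± 1741.6 to 12599.1 ± 1866.3 normalized counts (SD, n = 4 each; log2 difference 0.52 ± 0.16 SE, limma p = 0.00928, exact permutation p = 0.0571, adjusted p = 0.763). Inhbb, the activin B subunit and a relative of Inhbe, rose from 63.1 ± 8.21 to 85.1 ± 14.3 without overlap between the groups (log2 difference 0.42, limma p = 0.0367, exact permutation p = 0.0286, adjusted p = 0.763). Selenop, the selenium carrier that is also counted as a hepatokine, fell from 34720.4 ± 10427.8 to 20637.2 ± 5446.2 (log2 difference -0.73 ± 0.26 SE, limma p = 0.0171, exact permutation p = 0.0857, adjusted p = 0.763). Its normalized counts were 31716.7, 44895.4, 21440.8 and 40828.9 in control mice and 27250.4, 17760.5, 14896.4 and 22641.5 in AF1 peptide mice, so that 1 control lay within the AF1 peptide range. Without AF1 peptide replicate 1 the log2 differences were 0.44 for Igf1, 0.46 for Inhbb and -0.88 for Selenop, all called. With other mice left out in turn, the call of Igf1 was kept each time, that of Inhbb was lost without control replicate 1 or 4 or AF1 peptide replicate 3 or 4 (log2 differences from 0.31), and that of Selenop was lost without control replicate 2 or 4 or AF1 peptide replicate 3 (log2 differences up to -0.59). Rescaling to equal totals, with or without mitochondrial genes, also lost the call of Inhbb, and a fit with each gene's own variance that of Selenop.

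The receptors and partner proteins gave no calls, where 1.79% of all genes were called higher and 1.9% lower. Of 23 genes listed, 19 were in the table and 18 were tested, with 10 above 0 and 8 below and a median log2 difference of 0.00227, or 0.0151 without AF1 peptide replicate 1. Klb, the FGF21 co-receptor, was at 578 ± 43.8 normalized counts in control and 545 ± 128 in AF1 peptide mice (SD, n = 4 each), a log2 difference of -0.11. Without replicate 1, which had the highest value of the 8 (736.3), Klb was lower in each AF1 peptide mouse than in each control mouse, at a log2 difference of -0.26 (limma p = 0.0239, exact permutation p = 0.0571), under the 1.3-fold needed for a call. Klb is named for its role and was chosen after its values were seen. Acvr2a, an activin receptor, was the listed gene with the smallest p value (184 to 150, log2 difference -0.29 both with and without replicate 1, limma p = 0.0461, exact permutation p = 0.0571, also under 1.3-fold), followed by Fap, the protease that cuts FGF21 (13.5 to 22.4 normalized counts, log2 difference 0.65, or 0.52 without replicate 1). Gfral, Ret, Kl and Stra6 were not in the table.

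Of 23 transcription regulators known to act on these genes, 1 was called higher and 0 lower (all genes, 1.79% and 1.9%). Foxo1, the forkhead factor that insulin signaling inhibits, rose from 505 ± 16.4 to 714 ± 147 normalized counts (SD, n = 4 each; log2 difference 0.48 ± 0.13 SE, limma p = 0.00465, exact permutation p = 0.0286, adjusted p = 0.763). Its counts were 524.9, 502.2, 485.3 and 509.2 in control mice and 932.2, 657.5, 659.8 and 607.9 in AF1 peptide mice, without overlap. Without AF1 peptide replicate 1 the log2 difference of Foxo1 was 0.34 (limma p = 0.00357, exact permutation p = 0.0571), which is below 1.3-fold, so that the call was lost. The call of Foxo1 was also lost with a rescaling to equal totals. Mlx, the partner of ChREBP, had the next smallest p value (207 to 159, log2 difference -0.37, limma p = 0.0235, exact permutation p = 0.0571, below 1.3-fold) and was called lower without replicate 1 (-0.44).

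The target genes of 3 pathways that drive hepatokine transcription were read in the same way. For comparison, 48.2% of all genes tested were above 0, with 1.79% called higher and 1.9% called lower. Without AF1 peptide replicate 1 the called shares were 2.86% and 3.07%. Of 23 PPAR-alpha targets, 6 were above 0 and 17 below, with 0 called and a median log2 difference of -0.17. AF1 peptide replicate 1 was the lowest mouse for 14 of these 23, against 23.4% of all genes, and without it the median was 0.06, with 1 target called lower, the peroxisomal enzyme gene Ehhadh (-0.38, and -0.35 over all 8 mice, below 1.3-fold). Of 22 tested targets of the integrated stress response, 5 were above 0 and 17 below, with a median of -0.11, or -0.13 without AF1 peptide replicate 1. The serine synthesis gene Psph was called lower without overlap between the groups, at 131.9, 147.7, 128.6 and 119.8 normalized counts in control and 95.18, 94.98, 102.1 and 110.2 in AF1 peptide mice (log2 difference -0.39, limma p = 0.0147, exact permutation p = 0.0286, adjusted p = 0.763). Without replicate 1 Psph was at -0.36, below 1.3-fold (its call was also lost without control replicate 2 or AF1 peptide replicate 2, at -0.33 and -0.36), and Ddit4 was called lower instead (-0.45, and -0.34 over all 8 mice). Of 20 carbohydrate and insulin response genes, 3 were above 0 and 17 below, with a median of -0.26 that moved to -0.08 without replicate 1, the lowest mouse for 16 of the 20. Of these, 1 was called lower over all 8 mice, the fatty acid synthase gene Fasn (log2 difference -0.47, limma p = 0.0338, exact permutation p = 0.0286, adjusted p = 0.763), and Slc2a2, the liver glucose transporter gene, had the next smallest p value (-0.25, and -0.23 without replicate 1, below 1.3-fold). Without replicate 1 Fasn was at -0.28, below 1.3-fold, though still lower in each AF1 peptide mouse than in each control mouse, and its call was also lost without control replicate 1, 2 or 3. Without replicate 1 the glucose-6-phosphatase gene G6pc was called lower (-0.63). These lists were chosen with earlier results of the same livers known, so that their counts are a description.

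**Figure D5:**
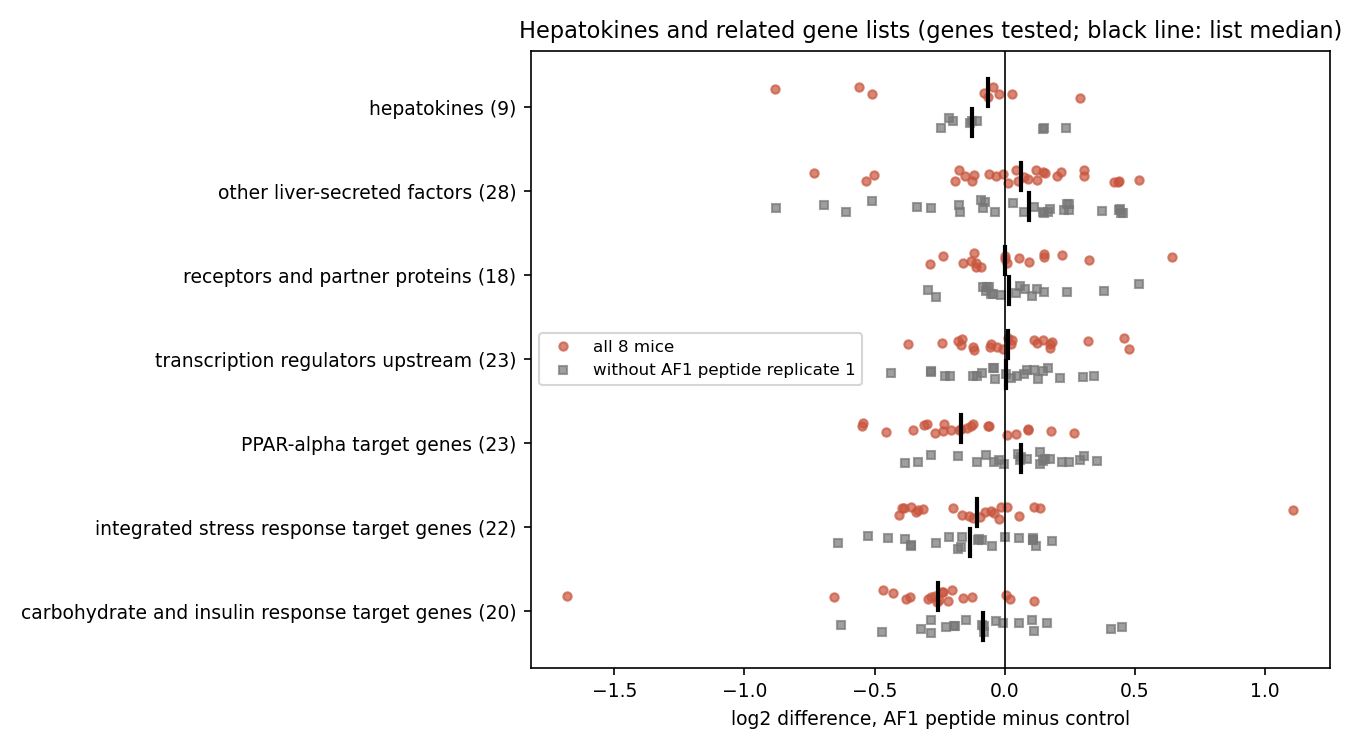
Log2 difference, AF1 peptide minus control (horizontal axis), of each gene tested in the hepatokine set and in 6 related lists, over all 8 mice (red circles) and without AF1 peptide replicate 1 (grey squares), with list medians as black lines. The hepatokine median is -0.06 over 8 mice and -0.13 over 7, and the medians of the PPAR-alpha targets (-0.17 to 0.06) and of the carbohydrate and insulin response genes (-0.26 to -0.08) move most when that mouse is left out.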

How the data were processed

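Stranded mRNA libraries were prepared from frozen livers. Reads were trimmed (Trim Galore 0.6.7), aligned to mm39 with HISAT2, sorted (SAMtools 1.17) and assigned to genes with GenomicAlignments by the authors, as the submitters' processing notes and the study's methods give it, and the annotation and the use of strand are not given in the sources used here. The authors made and deposited this signal as normalized read counts, each gene's reads over a size factor of its library, since 100% of the 172256 values came out whole (tolerance 0.02 reads) once that factor was removed. Groups and replicate numbers came from the sample labels. Differences in log2(normalized count + 1) were fitted in limma 3.58.1 (R 4.3.3, variance trend, group only, Benjamini-Hochberg adjustment over 15989 genes), and single genes also by two-sided exact permutation tests. A fold change on this scale is slightly smaller than that of the counts for low genes. The mice of a group are separate animals by their labels. Named were all members, the 2 genes of smallest p and any called gene of each list, and the genes most alike, apart from 1 item that is not reported here. The members and lists were chosen with earlier results of these data known. Alternatives were other pseudocounts, filters and scalings, count models on recovered reads (DESeq2 1.42.0, edgeR 4.0.16), the replicate block, each gene's own variance, no fold threshold, and each mouse left out in turn. The limma, edgeR and DESeq2 fits were tested on simulated counts. No mouse was set apart in that simulation, so that it does not cover a mouse like AF1 peptide replicate 1. Transcript lengths came from GENCODE M21, and promoters from RefSeq GRCm38.p6, whose coordinates are not those of mm39. RefSeq named 97.6% of the symbols. Reads assigned to genes, as recovered from the normalized counts, were 23031880 to 45117528 per mouse. The confidence intervals are those of limma, from the spread between mice with each gene's variance drawn toward that of other genes.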

Additional observations from a re-analysis of the deposited data

Results flagged for a closer look

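In 3 of 18 groups of 4 mice (9 hepatokines, 2 treatments), 1 mouse lay far from the other 3 on the log2 scale by Dixon's ratio, the distance to its nearest neighbour as a share of the group's range. About 1 in 20 groups, or 0.9 of 18, is flagged by chance. Angptl4 in AF1 peptide replicate 1 had a ratio of 0.83 (1646 normalized counts, against 3494 to 4077 in the other 3 mice). Inhbe in AF1 peptide replicate 1 had a ratio of 0.834 (1209, against 3514 to 4343). Inhbe in control replicate 4 had a ratio of 0.923 (4068, against 4492 to 4529), a gap that is small in absolute size because the other 3 controls were nearly equal. Fgf21 in AF1 peptide replicate 1, the largest departure in fold terms, was not flagged, since its group was spread more widely.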

How the results depend on the processing

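Over 20 alternatives for each of the 9 hepatokines, 162 of 180 log2 differences kept their direction and their side of the unadjusted threshold of 0.05, 4 passed it where the reported value did not, and 14 changed sign. The smallest adjusted p was 0.585. With a rescaling to equal totals, which moves the median of all genes from -0.01 to -0.0987, Gdf15 was at -0.602 and Inhbe at -0.651 (limma adjusted p = 0.867 for both), Angptl8 turned to -0.0622, and 2 hepatokines were called lower. With the replicate block, Gdf15 was at -0.511 (limma adjusted p = 0.618), the 1 hepatokine then called lower. The block called 341 genes higher and 392 lower. The deviations of same-numbered mice had correlations of 0.235, 0.0238, 0.216 and -0.064, with a mean of 0.103 against -0.0342 for different numbers. Of the 8 mice, 4 correlated best with their own number. The labels name no pairing by number, and the numbers were taken only as names. Angptl4 turned to 8.83e-07 with edgeR and 0.00325 with DESeq2, both in effect 0, and Fgf21 was at -0.482 and -0.481. With single mice left out, Fgf21 ran from -1.34 to -0.107, Inhbe from -0.741 to -0.126, Gdf15 from -0.739 to -0.246, Angptl4 from -0.2 to 0.236, Angptl6 from -0.132 to 0.0567, Angptl8 from -0.126 to 0.153, Rbp4 from -0.215 to 0.0595, and 0 to 1 hepatokines were called lower. The sign of Angptl4 rested on control replicate 2 (0.00523 without it) and AF1 peptide replicate 1. Over all genes, 435 were called higher and 459 lower with no filter, 122 and 602 with equal totals, 506 and 484 with no fold threshold, 197 lower with each gene's own variance, and 198 to 457 higher and 173 to 491 lower with single mice left out (173 without control replicate 2, 457 and 491 without AF1 peptide replicate 1). Of the counts of called genes in the related lists, 196 stayed within 1.5 times and 56 moved. No cause was tested.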

Other observations

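AF1 peptide replicate 1 also stood apart for genes close to the hepatokines that were chosen here after their values were seen. Asns, the asparagine synthetase gene and a target of ATF4, had 309.8 normalized counts in this mouse and 10.05 to 33.48 in the other 7. Cth, which encodes the cysteine-forming enzyme cystathionine gamma-lyase, had 14656.3 against 920.2 to 3640. Igfbp1, a secreted binder of insulin-like growth factors that insulin represses, had 1180 against 118.7 to 545.3. Pnpla3, a lipid droplet gene induced by carbohydrate and insulin, had 15.86 against 322 to 1090, and Ucp2, a mitochondrial carrier gene, 300.5 against 2101 to 3456. Fgf21, another ATF4 target, was lowest in this same mouse at 81.19, so that transcripts of one pathway stood at opposite ends. The integrated stress response list as a whole had this mouse lowest for 8 and highest for 5 of 22 genes tested, and Atf4 itself was at 4768 against 3428 to 4271.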
